A study of Mus musculus with 6 samples.

Results

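The genes described are the DNA methyltransferase family members Dnmt1, Dnmt3a, Dnmt3b and Dnmt3l and the methyltransferase recruiter Uhrf1, measured with one-colour Agilent arrays in mouse pluripotent stem cells. They were chosen by name and not by a rule on their values, but with earlier results of these data known. Their probes were found through the transcript accession that the scanner files give for each probe, because the files used here hold no gene symbol. The set has 5 genes of 17016 named on the array and 8 probes of 41174, with 3 probes for Dnmt3a, 2 for Uhrf1 and 1 each for Dnmt1, Dnmt3b and Dnmt3l. The cells, all of strain 129, fall into 6 groups of 1 array each. E3.5 EpiSC + SB431542 and E3.5 EpiSC are epiblast stem cells (EpiSCs) derived at embryonic day 3.5, before implantation, with and without the inhibitor. E5.5 EpiSC + SB431542 and E5.5 EpiSC are EpiSCs derived at embryonic day 5.5, and mES + SB431542 and mES are mouse embryonic stem cells, labelled E3.5. Treated cells were given 20 µM SB431542 on each of 4 days. This compound is a kinase inhibitor of the receptors through which Activin, Nodal and TGF-beta signal. All cells were grown in Knockout DMEM with 20% KSR, a serum replacement, and each kind of cell is represented by what the labels give as a single line.

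DNA methylation in mammals is placed mainly on cytosines of CG dinucleotides. Dnmt3a and Dnmt3b add it to unmethylated DNA, and Dnmt3l, which has no catalytic activity of its own, binds and stimulates them. Dnmt1 copies the pattern onto the new strand after replication, and Uhrf1 binds hemimethylated sites and brings Dnmt1 to them. Methylation is low in the blastocyst and is gained in the epiblast around implantation, the stages from which the cells of this study derive.

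The promoters of Dnmt3b and Dnmt3l are printed here because these were the members whose signal passed a test below, and because they differ in the dinucleotide that the family acts on. All 5 genes matched the RefSeq promoter table (build GRCm38.p6). The printed stretch of each gene comes from the most upstream of its start sites in that table. Which start site these cells use was not measured. The stretches lie on the plus strand at chr2:153649199-153649410 for Dnmt3b and at chr10:78042037-78042286 for Dnmt3l, upstream of the gene, and capitals mark CG.
Dnmt3b: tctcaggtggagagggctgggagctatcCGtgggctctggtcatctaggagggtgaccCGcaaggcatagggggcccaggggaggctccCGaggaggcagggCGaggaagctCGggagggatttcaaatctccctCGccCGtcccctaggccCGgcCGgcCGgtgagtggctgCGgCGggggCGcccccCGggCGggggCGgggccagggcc
Dnmt3l: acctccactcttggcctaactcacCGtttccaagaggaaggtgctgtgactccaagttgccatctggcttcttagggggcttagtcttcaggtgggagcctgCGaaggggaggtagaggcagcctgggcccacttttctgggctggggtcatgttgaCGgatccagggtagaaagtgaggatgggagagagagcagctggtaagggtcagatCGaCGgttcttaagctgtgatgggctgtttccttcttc

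The Dnmt3b stretch holds 16 CG in 212 bases, and the Dnmt3l stretch holds 5 in 250 bases. Counts of CG were also taken over the 250 bases before each start site of the promoter table, a window that can reach into the annotated gene, as that of Dnmt3b does. The Dnmt3b window has 21 CG, a count reached by 16.35% of 32851 such windows, whose median is 6. The Dnmt3l count of 5 is reached by 55.58% of them, and the 2 other Dnmt3l windows hold 4 and 3. Among the other members, the Dnmt3a windows hold 38, 40 and 15 CG, those of Dnmt1 2, 7 and 26, and those of Uhrf1 10 and 30. The motif CAGAC, a core sequence bound by Smad proteins, was searched as CAGAC and, for the other strand, as GTCTG. It is in 1 window each of Dnmt3l, Dnmt1 and Uhrf1, and not in the windows of Dnmt3b and Dnmt3a or in that of the printed Dnmt3l stretch, and 42.19% of all windows hold it on either strand. No promoter activity or methylation was measured in this study, so these sequences are context only.

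All 8 probes were well above background on all 6 arrays, and none of their spots was saturated. Levels are on the log2 scale and set against the array's 75th percentile, so that 0 lies at that percentile. Levels are compared between arrays for 1 probe at a time, since different probes have different brightness. Between 82.6% and 85.7% of spots were well above background on each array. The mES and E5.5 EpiSC arrays share 1 slide, whereas E3.5 EpiSC and E3.5 EpiSC + SB431542 lie on a slide each. In tests, the 2 EpiSC lines served as the replicates of their class, in a limma fit of all 6 arrays that leaves 2 residual degrees of freedom. Each mES group has a lone array, which was taken to vary as the EpiSC lines do. The labels do not say whether cultures were separate, and a p-value here covers no more than the sample-to-sample spread, part or all of which may be technical. Precision is limited by the number of arrays.

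The cells were set against their defining markers. Pou5f1, a core pluripotency factor, had levels of -5.39 in E3.5 EpiSC + SB431542, against 5.73 in E3.5 EpiSC, and of -4.38 in E5.5 EpiSC + SB431542, against 5.88 in E5.5 EpiSC. It was at 5.35 in mES + SB431542 and 5.59 in mES. Of the 3 pluripotent markers listed, Pou5f1 and Nanog fell with SB431542 in EpiSCs, whereas Sox2, which neural progenitors also express, differed by 0.49 ± 0.28 (limma adjusted p = 0.382). The summed linear level of 5 primed epiblast markers, which mark EpiSCs, was 3.22 in E3.5 EpiSC + SB431542, against 39.4 in E3.5 EpiSC, and 5.68 in E5.5 EpiSC + SB431542, against 50.7 in E5.5 EpiSC. It was 6.58 in mES + SB431542 and 12.3 in mES. Of these 5, 3 fell with SB431542 in EpiSCs (Fgf5, Fgf8 and T), with a median difference of -4.93 over the 5, and 3 were at least 2-fold lower in mES + SB431542 than in mES. The summed linear level of 5 neuroectoderm markers was 105 in E3.5 EpiSC + SB431542 and 97.2 in E5.5 EpiSC + SB431542, against 1.40 in E3.5 EpiSC and 1.53 in E5.5 EpiSC. Of these 5 neuroectoderm markers, 3 rose with SB431542 in EpiSCs. Of 3 trophectoderm markers, Eomes, which the primitive streak also expresses, fell, with a median difference of -4.92 over the 3. Their summed level was 0.0320 and 0.0416 in treated E3.5 and E5.5 EpiSCs, against 1.94 and 0.953 in untreated ones. Only 1 of the 3 was above background on each treated EpiSC array, against 3 in E3.5 EpiSC and 2 in E5.5 EpiSC. These values thus rest in part on signals that were not above background. The summed level of 5 naive markers was between 1.11 and 2.54 on the 4 EpiSC arrays, against 135 in mES + SB431542 and 102 in mES. Of 4 primitive endoderm markers, 2 were at least 2-fold higher in mES + SB431542 than in mES, with a median log2 ratio of 1.20. In E5.5 EpiSC over mES 2 of the 4 were also higher (median 0.95), whereas in E3.5 EpiSC over mES 1 was lower (median -0.42). In RNA from whole cultures, fewer cells of a type and less RNA per cell cannot be told apart, and the part of these shifts in the results below was not tested.

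Dnmt3b, one of the enzymes that methylate DNA de novo, was the member that fell with SB431542 in EpiSCs. Its level was 0.08 in E3.5 EpiSC + SB431542, against 4.41 in E3.5 EpiSC. In the E5.5 line it was 0.54 in E5.5 EpiSC + SB431542, against 4.58 in E5.5 EpiSC. The mES arrays read 4.63 in mES + SB431542 and 4.55 in mES. Both treated EpiSC arrays were thus far below the other 4, which lay within a narrow band. The 2 lines gave log2 ratios of -4.33 (20.1-fold) and -4.04 (16.5-fold), and the second of these compares arrays of 1 slide. The fitted difference was -4.18 ± 0.30 (log2, SE), an 18.2-fold lower signal with a 95% confidence interval of -4.97 to -3.40 (limma adjusted p = 0.0240). Of the 5 members, 1 was called in this comparison, against 2.13% of all 16154 genes tested in either direction and 1.21% that fell. With the cell line as a block, which pairs each treated array with the untreated array of its line, Dnmt3b had an adjusted p of 0.0118, and 872 genes in all were called in place of 344. Without E3.5 EpiSC + SB431542 its difference was -3.96 and no longer passed (adjusted p = 0.140). Without E5.5 EpiSC + SB431542 the difference was -4.41 (adjusted p = 0.0676).

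**Figure D1:**
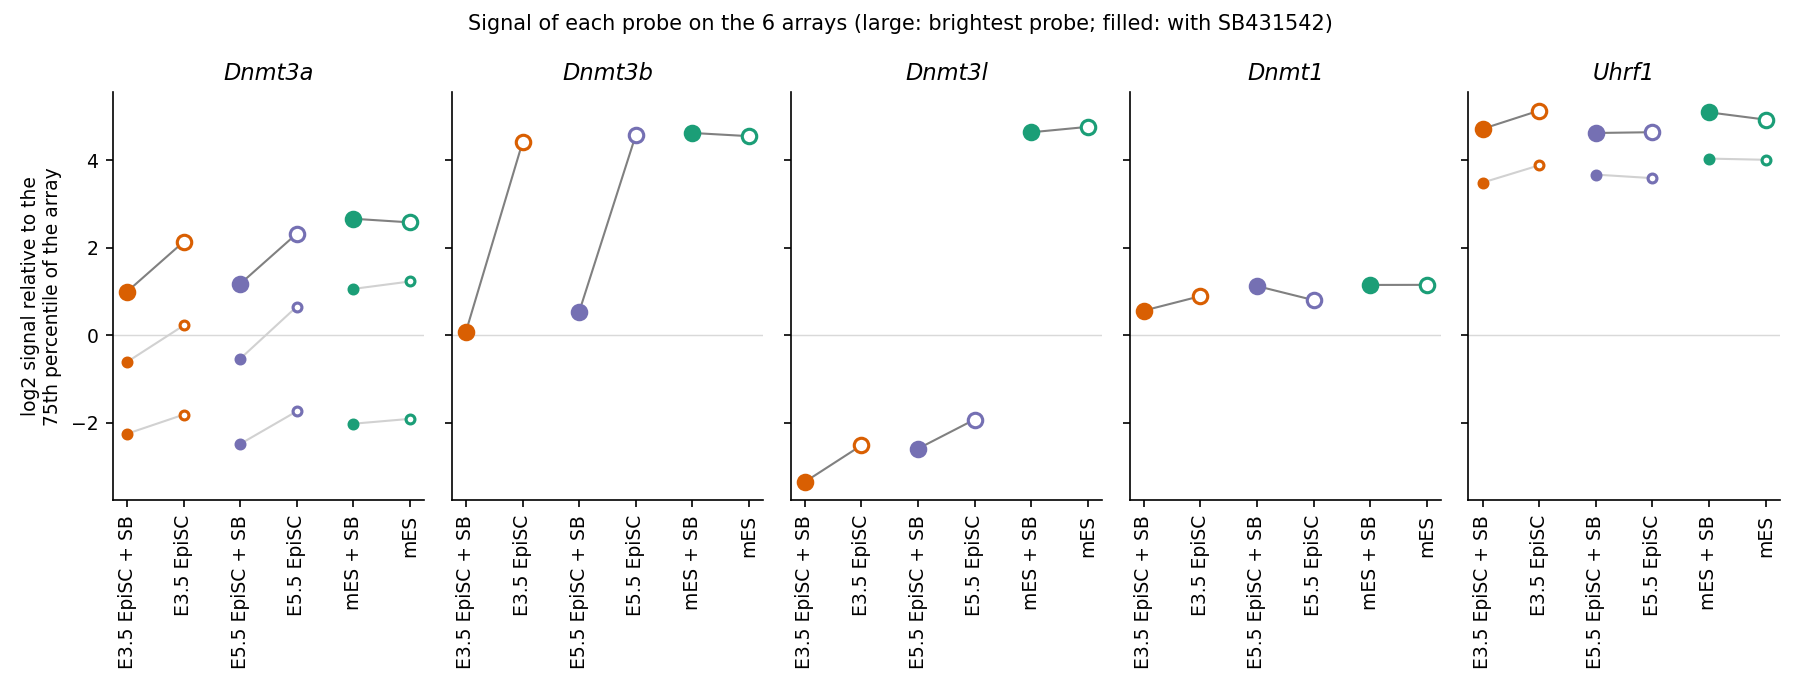
Signal of each probe of the 5 genes on the 6 arrays, on the log2 scale, with the array's 75th percentile at 0. Large symbols are the brightest probe of a gene and small ones its other probes, filled symbols are treated with SB431542, and lines join the arrays of 1 cell line. Levels of different probes are not comparable. Dnmt3b was at 0.08 and 0.54 in treated EpiSCs, against 4.41 and 4.58 in untreated EpiSCs, and Dnmt3l lay between -3.35 and -1.92 on the EpiSC arrays, against 4.64 and 4.77 on the mES arrays.

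In mES cells the same treatment left Dnmt3b within a log2 ratio of 0.07, with 1 array on each side and no test. The response of the EpiSCs minus that of mES cells was -4.26 ± 0.51 for Dnmt3b (95% confidence interval -5.61 to -2.91). Its unadjusted limma p was 0.000588 and its adjusted p 0.286, so the difference between the responses did not pass after adjustment over all genes. In this comparison 0% of genes were called by limma, although 1125 genes had an unadjusted p under 0.05, and 0 of 5 members were called. The other members had interaction estimates of -1.23 ± 0.46 for Dnmt3a, -0.63 ± 0.70 for Dnmt3l, -0.0021 ± 0.54 for Dnmt1 and -0.39 ± 0.52 for Uhrf1, with an adjusted p of 0.710 for Dnmt3a and higher for the rest. Across all 3 lines together, Dnmt3b had a difference of -2.77 ± 0.98 (adjusted p = 0.502), and 0% of genes were called by limma, with 1395 at an unadjusted p under 0.05. That fit asks for 1 effect shared by the lines. Without mES or without mES + SB431542, which leaves the EpiSC lines alone, it called Dnmt3b and 872 genes in all.

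Dnmt3a, the other de novo enzyme, had lower signals in both treated EpiSC arrays but did not pass. Its brightest probe read 0.999 in E3.5 EpiSC + SB431542, against 2.14 in E3.5 EpiSC, and 1.18 in E5.5 EpiSC + SB431542, against 2.33 in E5.5 EpiSC. Both lines gave a ratio of 2.2-fold. The fitted difference was -1.15 ± 0.27 (95% confidence interval -1.84 to -0.45), with an unadjusted limma p of 0.00894 and an adjusted p of 0.120. The 2 other probes had differences of -1.01 ± 0.30 and -0.59 ± 0.28 when every probe was fitted on its own (adjusted p = 0.200 and 0.334), and the brightest had an adjusted p of 0.144 in that fit. All 3 probes were lower in each treated EpiSC array than in its untreated partner, with log2 ratios between -1.19 and -0.44. On the mES arrays the brightest probe read 2.67 in mES + SB431542 and 2.58 in mES. All 3 probes carry the same transcript accession, so the known long and short forms of Dnmt3a were not told apart.

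**Figure D2:**
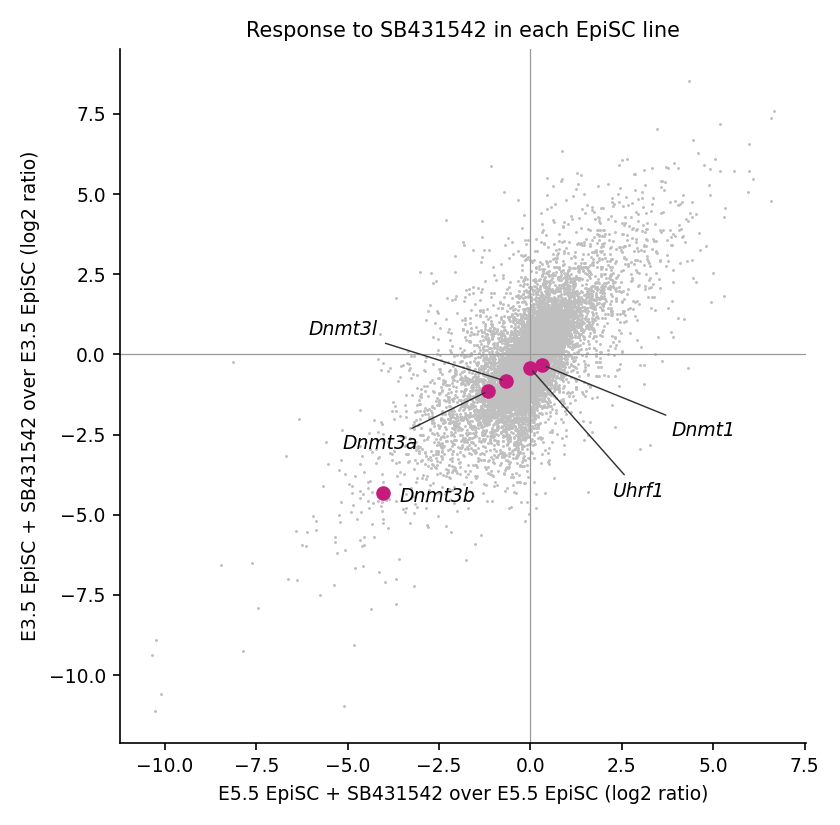
Response to SB431542 of the 16154 genes tested (grey) and of the 5 members (magenta), as log2 ratios of treated over untreated arrays in the E5.5 line (x axis) and the E3.5 line (y axis). Dnmt3b lies at -4.04 and -4.33, Dnmt3a at -1.15 and -1.14, and Dnmt3l at -0.67 and -0.84, whereas Dnmt1 and Uhrf1 lie within 0.42 of 0 on both axes.

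Read 1 pair of arrays at a time, Dnmt3a and Dnmt3b were the 2 of 5 members at least 2-fold lower with SB431542 in the E3.5 line, where 19.7% of all genes were. They were again the 2 of 5 in the E5.5 line, where 8.84% of all genes were. In mES cells 0 of 5 members changed 2-fold, against 2.56% of genes in either direction. The members' log2 ratios in mES + SB431542 over mES ran from -0.12 for Dnmt3l to 0.17 for Uhrf1. These ratios rest on 1 array on each side and have no replicate check.

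Dnmt3l, the cofactor of the de novo enzymes, was the member that fell in EpiSCs relative to mES cells. It read -2.52 in E3.5 EpiSC and -1.92 in E5.5 EpiSC, against 4.77 in mES. With the inhibitor it read -3.35 in E3.5 EpiSC + SB431542 and -2.59 in E5.5 EpiSC + SB431542, against 4.64 in mES + SB431542. All 4 EpiSC arrays were below both mES arrays by a wide margin. In intensity units, the scanner's linear scale, the probe gave 208 and 324 on the untreated EpiSC arrays, against 37694 on the mES array. The fitted difference of EpiSC minus mES was -6.99 ± 0.49 (95% confidence interval -8.29 to -5.69), a 127-fold lower signal (limma adjusted p = 0.0185). Of the 5 members 1 was called, against 1.52% of all genes in either direction and 1.13% that fell. The E3.5 line alone was 156-fold below mES, and the E5.5 line, which shares the slide of the mES arrays, was 103-fold below. Singly, 1 of 5 members was at least 2-fold lower in each line, against 12.5% of genes in the E3.5 line and 10.6% in the E5.5 line. Without either treated EpiSC array the difference stayed at -6.99 and the adjusted p was 0.0789, since that array adds to the estimate of the spread only.

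SB431542 gave a smaller Dnmt3l ratio in the EpiSC lines, at -0.84 in the E3.5 line and -0.67 in the E5.5 line. The fitted difference was -0.75 ± 0.40, with a 95% confidence interval of -1.81 to 0.31 (limma adjusted p = 0.362), and it did not pass. The level in E5.5 EpiSC + SB431542 and that in E3.5 EpiSC were 0.08 apart, within the moderated SD of 0.40.

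The other members were not called between untreated EpiSCs and mES cells. Dnmt3b differed by -0.06 ± 0.36 (95% confidence interval -1.01 to 0.90, limma adjusted p = 0.966). Dnmt3a differed by -0.35 ± 0.33 on its brightest probe (adjusted p = 0.707), whereas its 2 other probes gave -0.79 ± 0.37 and 0.14 ± 0.34 in the fit of single probes and so disagreed in sign. These intervals leave room for changes of up to about 1 log2 unit for Dnmt3b. The sign of the Dnmt3b difference was not stable, running from -0.23 to 0.03 over the 4 ways of scaling the arrays.

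Between treated EpiSCs and treated mES cells, Dnmt3b and Dnmt3l both fell. Dnmt3b differed by -4.32 ± 0.36, or 19.9-fold (limma adjusted p = 0.00949). Dnmt3l differed by -7.61 ± 0.49, or 196-fold (adjusted p = 0.00754). Dnmt3a differed by -1.58 ± 0.33 on its brightest probe, with an adjusted p of 0.0512. That probe passed in a pair of alternatives, with another background correction (-1.50, adjusted p = 0.0462) and when only genes above background on all 6 arrays were tested (adjusted p = 0.0370). The 2 other Dnmt3a probes gave -1.63 ± 0.37 and -0.35 ± 0.34 in the limma fit of single probes (adjusted p = 0.0668 and 0.546), so 1 of them showed little difference. Of the 5 members 2 were called, against 10.9% of all genes in either direction and 5.40% that fell. The median difference of the members was -1.58 and that of all genes -0.34. Without E3.5 EpiSC + SB431542 no gene was called, and Dnmt3b and Dnmt3l each had an adjusted p of 0.0514. In single pairs 3 of 5 members were at least 2-fold lower in each treated line than in mES + SB431542, against 28.3% of genes for the E3.5 line and 16.3% for the E5.5 line.

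**Figure D3:**
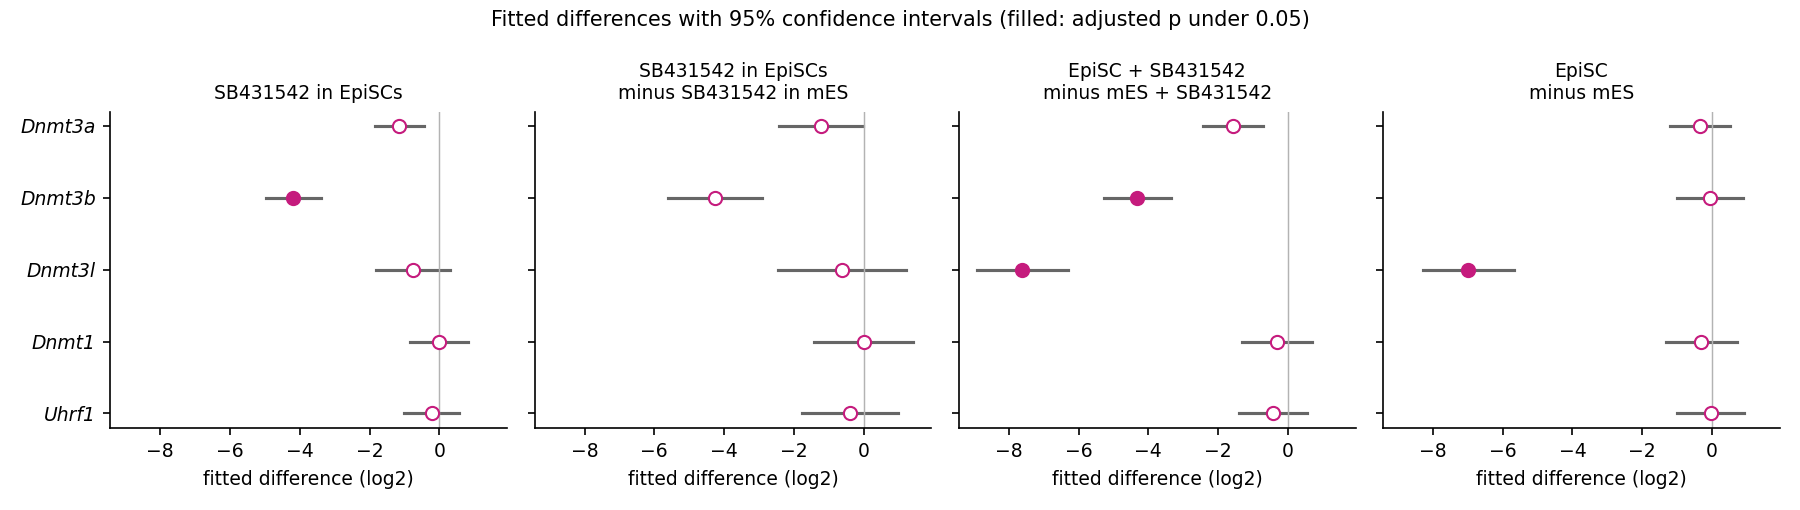
Fitted differences of the 5 members in 4 comparisons, in log2 units, with 95% confidence intervals (lines). Filled points have a limma adjusted p under 0.05. Dnmt3b is called for SB431542 in EpiSCs (-4.18), Dnmt3l for EpiSC minus mES (-6.99), and both between treated EpiSCs and treated mES cells (-4.32 and -7.61).

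The maintenance genes varied less. Dnmt1, which copies methylation after replication, read 0.56 in E3.5 EpiSC + SB431542, against 0.90 in E3.5 EpiSC. It read 1.13 in E5.5 EpiSC + SB431542, against 0.81 in E5.5 EpiSC, and 1.15 in both mES + SB431542 and mES. The lines moved in opposite directions, the values of treated and untreated EpiSCs overlapped, and the range over all 6 arrays was 0.59. The fitted difference for SB431542 in EpiSCs was -0.0044 ± 0.31, with a 95% confidence interval of -0.83 to 0.82 (limma adjusted p = 0.993). The difference of EpiSC minus mES was -0.30 ± 0.38, with an interval of -1.31 to 0.70 (adjusted p = 0.800). These intervals allow changes of over 1.5-fold in either direction.

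Uhrf1, the partner that brings Dnmt1 to hemimethylated sites, ranged over 0.51 on its brightest probe. It read 4.72 in E3.5 EpiSC + SB431542, against 5.14 in E3.5 EpiSC, and 4.63 in E5.5 EpiSC + SB431542, against 4.65 in E5.5 EpiSC. The mES arrays read 5.10 in mES + SB431542 and 4.93 in mES. Treated and untreated EpiSCs overlapped. The difference for SB431542 in EpiSCs was -0.22 ± 0.30 (95% confidence interval -1.01 to 0.57, limma adjusted p = 0.695), and over the 4 scalings it ran from -0.23 to 0.09. The second probe gave -0.16 ± 0.29 when fitted on its own. The difference of EpiSC minus mES was -0.04 ± 0.37 on the brightest probe (95% confidence interval -1.01 to 0.93, adjusted p = 0.977) and -0.27 ± 0.35 on the second. Between treated EpiSCs and treated mES cells, Uhrf1 differed by -0.43 ± 0.37 (adjusted p = 0.479), with values from -0.43 to 0.03 over the 4 scalings, and Dnmt1 by -0.31 ± 0.38 (adjusted p = 0.617).

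The order of the 6 levels was set against the moderated SD of each gene from the fit. For Dnmt1 and Uhrf1 no neighbouring levels differed by more than that SD (0.31 and 0.30). For Dnmt3a the only gap above its SD of 0.27 lay between E5.5 EpiSC + SB431542 and E3.5 EpiSC, and measured 0.96. For Dnmt3b, the gap of 3.88 between E5.5 EpiSC + SB431542 and E3.5 EpiSC and the gap of 0.45 between the treated EpiSC arrays exceeded its SD of 0.30, and the 4 highest levels did not differ beyond it. For Dnmt3l the widest gap, 6.57, lay between E5.5 EpiSC and mES + SB431542. Gaps of 0.76 between the treated EpiSC arrays and of 0.59 between the untreated ones also exceeded its SD of 0.40. Before moderation, the SD of each gene comes from these same differences between the EpiSC lines, since each mES group has a lone array. A gap between the lines that exceeds it is thus a description and not a test of the lines.

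The members were also compared between the EpiSC lines, E5.5 minus E3.5, in a model of line plus treatment. Differences were 0.18 ± 0.41 for Dnmt3a, 0.31 ± 1.20 for Dnmt3b, 0.68 ± 0.29 for Dnmt3l, 0.24 ± 0.28 for Dnmt1 and -0.29 ± 0.27 for Uhrf1. The limma adjusted p ran from 0.689 to 0.950, and 0 of 5 members and 0% of genes were called, with 1263 genes at an unadjusted p under 0.05. This model holds 1 treatment effect for all lines, whereas the Dnmt3b ratios were unequal between EpiSC and mES lines. The untreated arrays alone gave 0.59 for Dnmt3l and -0.49 for Uhrf1 as log2 ratios of E5.5 EpiSC over E3.5 EpiSC, and 0 of 5 members reached 2-fold, against 9.76% of genes.

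Genes with the pattern most like Dnmt3b and Dnmt3l were sought by the root mean square difference over the 6 arrays after centring each gene on its mean. For Dnmt3b the 4 nearest were Krtcap3 (0.26), F11r (0.27), Klk8 (0.31) and Gmfg (0.34), on the log2 scale. For Dnmt3l they were Ott (0.22), Tex14 (0.29), Cox8c (0.31) and Triml1 (0.31). Pearson correlations with the member over the same 6 arrays were between 0.992 and 0.998, and the points share arrays and scaling, so they are given as a description. Dnmt3a, Dnmt1 and Uhrf1 had ranges under 2 and were not used for this.

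The rest of the DNA methylation pathway was read from a list of 41 genes, of which 35 were measured and tested. The list was chosen by role, with earlier results of these data known. Tet1, Tet3, Prdm14, Usp7, Zfp57 and Zbtb4 were not analysed here. For SB431542 in EpiSCs 0 of 35 passed, where 2.13% of all genes did, with a median difference of -0.13 and 14 of 35 above 0, against a median of -0.19 over all genes tested. Between EpiSC and mES 0 rose and 1 fell (1.13% of all genes fell), with a median of -0.41 against -0.06 over all genes. Between treated EpiSCs and treated mES cells 0 rose and 3 fell (5.40% of all genes fell), with a median of -0.58 against -0.34.

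Like Zfp42, Dppa3 (Stella), which protects the maternal genome from demethylation in the zygote, is also 1 of the naive markers summed above. Dppa3 was the 1 pathway gene that fell between EpiSC and mES, with a log2 difference of -9.13 ± 1.04 (limma adjusted p = 0.0399). It read -4.88 in E3.5 EpiSC and -7.26 in E5.5 EpiSC, against 3.07 in mES, and was well above background on 1 of the 2 untreated EpiSC arrays, so the size of this difference rests in part on a signal that was not. Between treated EpiSCs and treated mES cells it fell (adjusted p = 0.0108), and it was above background on neither treated EpiSC array. With a floor on those arrays, it was 1394-fold below the mES + SB431542 signal. The floor was the dimmest signal still well above background on the array, used where the signal of Dppa3 itself was lower. The limit for the Dppa3 spots themselves may lie above that floor, so 1394-fold is not a strict bound. Zfp42 (Rex1), a zinc finger gene used as a naive marker, differed by -9.35 ± 1.36 between EpiSC and mES (adjusted p = 0.0588) and fell by 11.37 between treated EpiSCs and treated mES cells (adjusted p = 0.0157).

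The methylcytosine dioxygenase gene Tet2, which acts in demethylation, read -2.63 in E3.5 EpiSC and -3.05 in E5.5 EpiSC, against -0.27 in mES, a difference of -2.57 ± 0.41 that did not pass (limma adjusted p = 0.0723). Of the 6 measured genes of demethylation, Apobec1, a cytidine deaminase, fell between treated EpiSCs and treated mES cells by 2.95 on the log2 scale (adjusted p = 0.0137). Of the 6 maintenance partners, none passed in any comparison. Uhrf2, the paralogue of Uhrf1, differed by 1.01 between EpiSC and mES (adjusted p = 0.283) and by -0.03 with SB431542 in EpiSCs (adjusted p = 0.955). Hells, a chromatin remodeller needed for normal DNA methylation, differed by -0.85 (adjusted p = 0.347) and by -0.58 (adjusted p = 0.334) in the same comparisons.

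**Figure D4:**
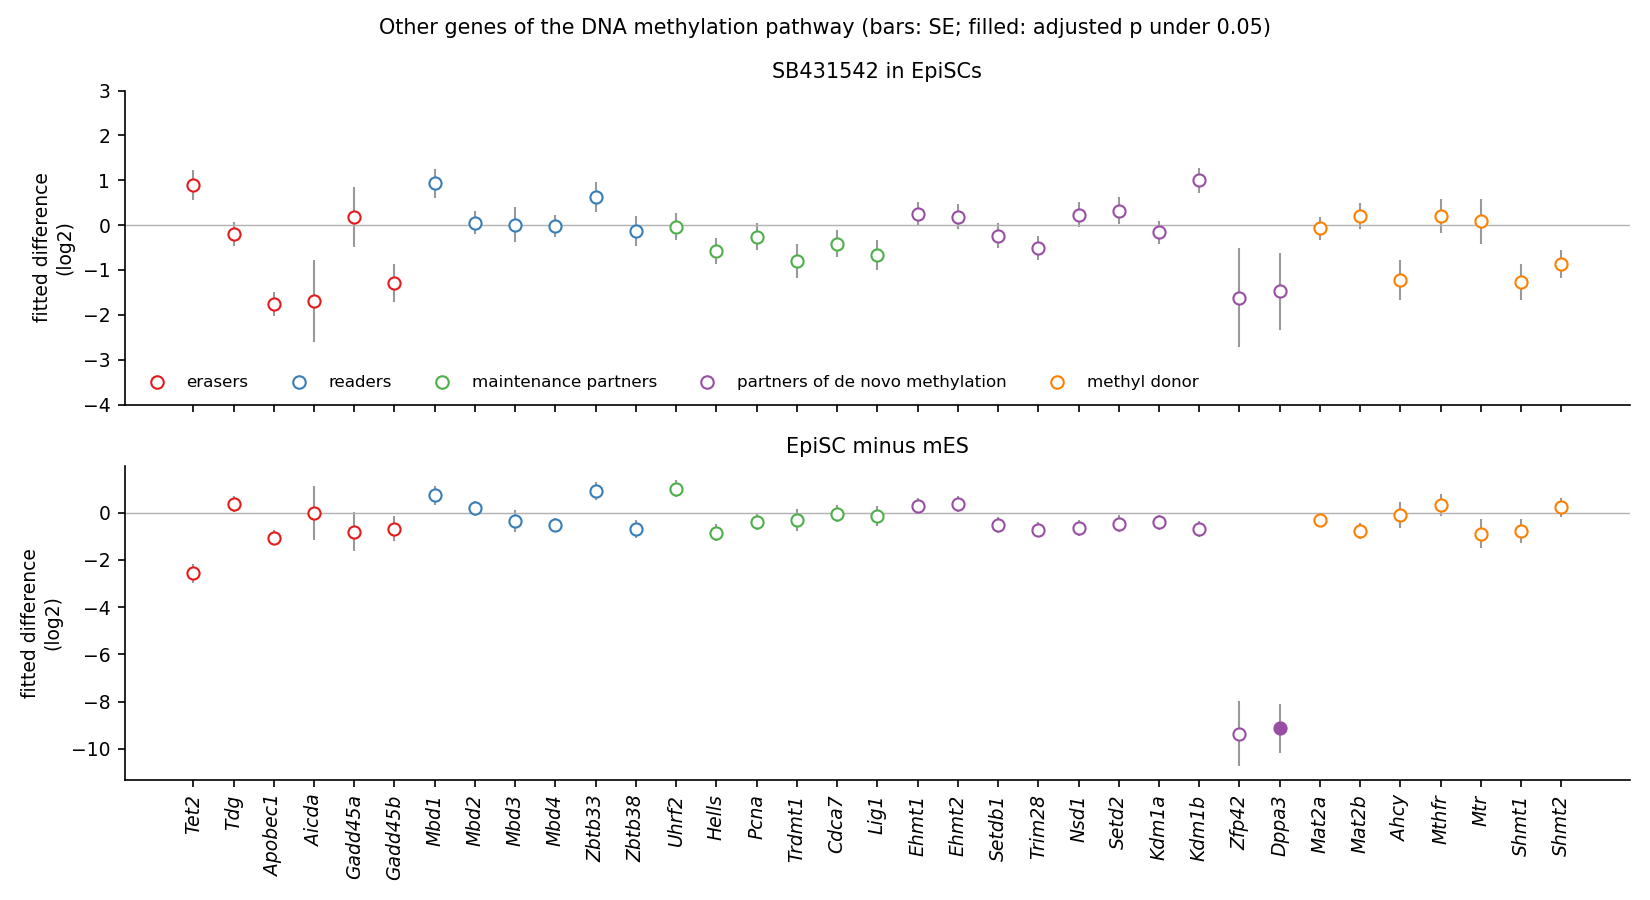
Fitted log2 differences (points) and their SE (bars) of the 35 measured pathway genes for SB431542 in EpiSCs (upper panel) and EpiSC minus mES (lower panel), coloured by role. Filled points have a limma adjusted p under 0.05. In the upper panel 0 of 35 are filled, and in the lower panel Dppa3 (-9.13) is the 1 that is, beside the unfilled Zfp42 (-9.35).

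Because Dnmt1 and Uhrf1 are known to rise in S phase, 21 measured genes of DNA replication and the S phase, of 23 listed, were set beside them. None passed in any of the tested comparisons, and their median for SB431542 in EpiSCs was -0.32, against -0.19 over all genes. Their median log2 ratio was -0.65 in the E3.5 line, with 6 of 21 at least 2-fold lower, where 19.7% of all genes were. It was 0.02 in the E5.5 line, with 0 of 21, where 8.84% of all genes were. Their summed linear level was 283 in E3.5 EpiSC + SB431542 and between 416 and 544 on the 5 other arrays. The Dnmt1 and Uhrf1 ratios of the E3.5 line (-0.33 and -0.42 on the log2 scale) are given beside these values. The part of the one in the other was not tested. Over 3 alternatives of processing, they ran from -0.32 to -0.19 for Dnmt1 and from -0.41 to 0.04 for Uhrf1. The sign of the Uhrf1 ratio was thus not stable. In mES + SB431542 over mES the S phase median was -0.04.

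Markers of fibroblasts, which could come from feeder cells, were also read on each array. All 10 were above background on all 6 arrays, and their summed linear level was 67.6 in E3.5 EpiSC + SB431542, against 75.5 in E3.5 EpiSC, and 119 in both E5.5 EpiSC + SB431542 and E5.5 EpiSC. It was 60.0 in mES + SB431542 and 46.9 in mES. Their median log2 ratio with SB431542 was 1.73 in the E3.5 line and -1.08 in the E5.5 line. In E3.5 EpiSC over mES it was -0.27, with 1 of 10 at least 2-fold higher and 3 lower. In E5.5 EpiSC over mES it was 1.91, with 7 of 10 at least 2-fold higher and 1 lower. The part of fibroblast RNA in the results above was not tested. The comparisons of SB431542 in EpiSCs and of EpiSC minus mES share the untreated EpiSC arrays, and the E3.5 arrays lie on slides of their own. The Dnmt3b fall and the Dnmt3l difference were both present within the shared slide, at -4.04 and -6.69.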

How the data were processed

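Total RNA of 6 cell samples was labelled with 1 dye and hybridised to Agilent arrays, per the labels. The deposited scanner files give the intensity of each spot, linear and with background subtracted. Per the file headers the program was Agilent Feature Extraction 10.7.1.1, whereas the submitters' processing notes name version 9.1. A deposited value table held the same intensities (45018 of 45018 spots equal on each array).

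Control spots and outliers were removed, and repeats of a probe averaged. Values were log2 of the deposited intensity minus log2 of the array's 75th percentile. Probes were named by transcript accession through the RefSeq table of GRCm38.p6 (24375 of 41174), and the probe of highest mean signal stood for its gene. Of 17016 genes, the 16154 above background on 1 array or more were tested with limma 3.58.1 (R 4.3.3), with Benjamini-Hochberg adjustment at 0.05. Line and treatment were the terms for comparisons across lines or between EpiSC lines, and 4 arms for the others. The line pairs treated with untreated arrays because both come from the same cells. Deviations of the E3.5 arrays from their arm means correlated at 0.274 over 16154 genes. Those of the E5.5 arrays, which share a slide, are the same with the sign reversed. Line and slide thus cannot be told apart in this value. Pairs of arrays were described by a 2-fold rule. The 5 members and the gene lists were chosen with earlier results of these data known, and 1 gene of the pathway list is not reported here and was left out of its counts. Named were the members, pathway genes that pass a test or belong to a fixed few, and the 4 genes nearest to each member with a range of at least 2. Alternatives changed the background correction, scaling, filter, probe choice, pairing and arrays used. The fit was also tested on simulated data, and no result of that test is given here.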

Additional observations from a re-analysis of the deposited data

Results flagged for a closer look

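For the Dnmt1 probe the EpiSC lines moved in opposite directions with SB431542, with a log2 ratio of -0.33 in the E3.5 line and 0.32 in the E5.5 line. The response in the E3.5 line minus that in the E5.5 line was -0.65 and was not tested, since each line has 1 array on each side. The second, dimmer Uhrf1 probe also moved in opposite directions, with ratios of -0.40 and 0.08 and a difference of -0.48 that was not tested. The brighter Uhrf1 probe had ratios of -0.42 and -0.02. Over 3 alternatives of processing, these ran from -0.41 to 0.04 in the E3.5 line and from -0.05 to 0.14 in the E5.5 line. Neither sign was thus stable. All these ratios are relative to the array's 75th percentile, which was 1801 in E3.5 EpiSC + SB431542, against 1190 in E3.5 EpiSC (intensity units). In the E5.5 line it was 1459 with SB431542, against 1228. Unscaled, the Dnmt1 and Uhrf1 probes were all brighter on the treated array of each EpiSC line. The Dnmt1 intensity was 2663 against 2214 in the E3.5 line, and 3188 against 2147 in the E5.5 line. The part of array-wide shifts in these ratios was not tested.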

How the results depend on the processing

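Over the alternatives of the tested comparisons, 405 of 415 member values kept their side of the threshold, 6 lost a call, 4 gained one and 0 reversed. The ranges that follow are over fits that leave out 1 array. Between EpiSC and mES 0 to 245 genes were called in place of 245, and 0 without either treated EpiSC array (3303 at an unadjusted limma p under 0.05), with 0 or 1 members called. For SB431542 in EpiSCs the range was 0 to 344 genes and 0 to 1 members, with 213 without E3.5 EpiSC, 0 without E3.5 EpiSC + SB431542 (2438 at an unadjusted p under 0.05) and 0 without E5.5 EpiSC + SB431542 (5039). Between treated EpiSCs and treated mES cells it was 0 to 1758 genes and 0 to 2 members, with 0 without E3.5 EpiSC + SB431542 (4306). Across the 3 lines it was 0 to 872 genes and 0 to 1 members, with 872 without either mES array and 3 without either E5.5 EpiSC array. Between the EpiSC lines it was 0 to 7 genes, with 4 without either mES array, 5 without E5.5 EpiSC and 7 without E5.5 EpiSC + SB431542. These fits hold fewer arrays and residual degrees of freedom.

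With all arrays kept, fitting every probe on its own called 451 probes between EpiSC and mES, 569 for SB431542 in EpiSCs and 3311 between treated EpiSCs and treated mES cells. Testing only genes above background on all 6 arrays called 546 for SB431542 in EpiSCs, and the replicate block by cell line called 872 there and changed no member's call. With normexp background correction 1 member, in place of 2, was 2-fold lower in the E5.5 line (Dnmt3a at -0.94). The normexp setting moved the median of all genes to 0.15, against -0.06, between EpiSC and mES, and to -0.31, against -0.19, for SB431542 in EpiSCs. Relative to the median of all genes, Dnmt3b with SB431542 in EpiSCs ran from -4.01 to -3.61 over the 4 scalings and Dnmt3l in EpiSC minus mES from -6.93 to -6.83. The cause of the moves with background correction and probe choice was not tested.

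The mean signal column was not in the files used here, so normexp used the median spot signal. Gene symbols from the scanner files and the slide as a random block were not run, the first because the files hold no such column and the second because its correlation could not be estimated. Whether the Dnmt3a, Dnmt3b and Dnmt3l probes also bind transcripts of related pseudogenes was not tested.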
